A study of Mus musculus with 2 samples.

Results

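The imprinted genes are the subset of mammalian genes that are transcribed from only the maternally or only the paternally inherited copy. They were examined here in 2 cell populations sorted from the mouse otocyst, the epithelial vesicle that becomes the inner ear. A list of 44 imprinted genes was used, and a gene was taken up when at least 1 probe set of the array names that gene and no other. By this rule 37 genes were found, of 18194 genes named alone by a probe set. The EGFP-positive cells, which the labels place mainly in the ventral and dorsomedial otocyst, were measured on 1 array, and the EGFP-negative cells, which per the labels include the dorsolateral otocyst, on 1 array. Both came from embryos at E10.5 that were heterozygous for the transgene Tg(ETAR-EGFP)14Imeg and had received no further treatment per the labels. The otocysts were dissociated with trypsin and the cells sorted by fluorescence, with propidium iodide added. The cells that express the transgene define the sort, so each population is a mixture of the otocyst regions and of any other cells carried along in dissection.

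An imprint is a DNA methylation mark that is laid down in the egg or the sperm and kept through the divisions of the embryo. Many imprinted genes lie in clusters, in which a methylated control region, and often a long non-coding RNA, keeps the genes of 1 parental chromosome silent. A number of imprinted genes act on embryonic growth: paternally expressed genes often promote it, and maternally expressed genes such as Cdkn1c and Grb10 often restrain it. The arrays measure the sum of both alleles and hold no information on which parental copy was transcribed.

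Each library was summarised as 1 MAS5 signal per probe set, a linear intensity. A floor was set at the 40th percentile of each array, 10.4 for EGFP-positive and 12.4 for EGFP-negative cells, and signals at or below it were treated as not measured. Log2 ratios throughout divide the EGFP-positive by the EGFP-negative signal, with signals raised to the floor. With 1 array per population there is no spread between samples and no test. A gene is called different at 2-fold or more, a log2 difference of 1. As a partial measure of error, the log2 ratio varied with an SD of 0.315 between probe sets of the same gene (5640 genes). That SD was 0.411 for genes with a mean signal under 50 and 0.249 at 200 or more.

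Most imprinted genes differed by less than 2-fold between the populations. Of the 37 genes, 30 lay above the floor in both libraries, 2 in the EGFP-negative library alone, and 5 in neither. None of the 32 measured genes was higher by 2-fold or more in EGFP-positive cells. The share over all 13363 measured genes was 2.90%, and a list of this size would hold few calls at that share. In EGFP-negative cells 4 of the 32, or 12.5%, were at least 2-fold higher, against 7.63% of all measured genes. The 4 were Plagl1, Asb4, Slc38a4 and Peg3. With both signals required to be above the floor, the count was 3 of 30, against 5.41% of 11682 genes. The median log2 ratio of the 32 genes was -0.02, beside 0.00 over all measured genes. Their quartiles were -0.75 and 0.17, beside -0.30 and 0.23 over all measured genes. In bulk RNA, fewer cells of a type and less RNA per cell cannot be told apart.

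**Figure D1:**
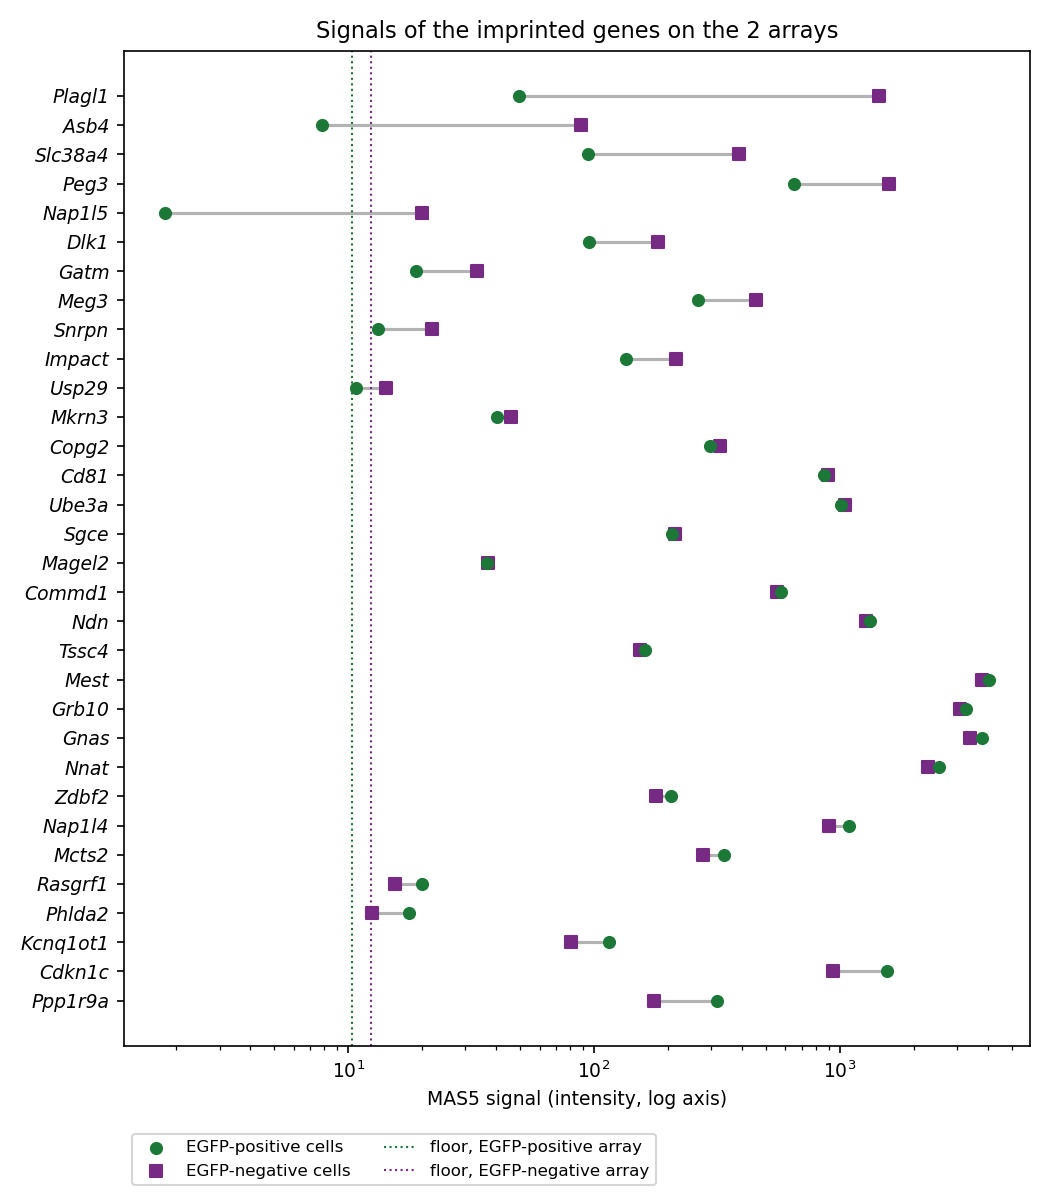
MAS5 signal (log axis) of each of the 32 measured imprinted genes in EGFP-positive (circles) and EGFP-negative cells (squares), 1 array each, ordered by the log2 ratio. Dotted lines mark the floors at 10.4 and 12.4. The wide gaps are at the top, where the EGFP-negative signal is the higher one, and the widest gap in the other direction is that of Ppp1r9a at the bottom.

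Plagl1 encodes a zinc finger transcription factor that is known in the mouse as a regulator of other imprinted genes, and it is expressed from the paternal copy. Its brightest probe set read 49.6 in EGFP-positive cells, against 1444.6 in EGFP-negative cells, 29.1-fold higher in EGFP-negative cells. The other probe sets of Plagl1 did not give that size. A dim one read 1.4 in EGFP-positive cells, against 26.4 in EGFP-negative cells, a bound of at least 2.54-fold in favour of EGFP-negative cells. The last one read 13.2 in EGFP-positive cells, against 7.9 in EGFP-negative cells, just above the floor in EGFP-positive cells and below it in EGFP-negative cells, so its log2 ratio of 0.090 is a ratio to the floor and not a measured near-equality. The bright probe set is of the class with the suffix x, whose probes can match other transcripts. Without probe sets of that class and of those shared between transcripts, Plagl1 is represented by that last one, which has too little signal for a call in either direction. The part of cross-hybridisation in the 29.1-fold ratio was not tested.

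Slc38a4, a paternally expressed gene for a sodium-coupled amino acid transporter, had signals of 94.6 in EGFP-positive cells, against 388.5 in EGFP-negative cells, 4.11-fold higher in EGFP-negative cells. Its second probe set read 71.9 in EGFP-positive cells, against 213.1 in EGFP-negative cells, a difference of 2.96-fold. Both probe sets passed the 2-fold limit in the same direction. Peg3 is a paternally expressed gene for a large zinc finger protein with effects on growth and maternal behaviour in the mouse. It read 649.0 in EGFP-positive cells, against 1580.8 in EGFP-negative cells, 2.44-fold higher in EGFP-negative cells. A second probe set read 470.3 in EGFP-positive cells, against 1278.2 in EGFP-negative cells, and another 114.3 in EGFP-positive cells, against 409.7 in EGFP-negative cells. All 3 passed the limit, at 2.44-fold to 3.58-fold, and the populations differed in the same direction on each. Asb4 is maternally expressed and encodes a substrate adaptor of a ubiquitin ligase. It read 7.8 in EGFP-positive cells, against 88.2 in EGFP-negative cells, a bound of at least 8.48-fold in favour of EGFP-negative cells relative to the floor. Its second probe set gave 8.3 in EGFP-positive cells, against 74.2 in EGFP-negative cells. Because Asb4 entered the measured set through its EGFP-negative signal alone, and because its EGFP-positive signal is no higher than the 12.3 of the highest bacterial control without target, the size of this ratio depends on the floor.

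Markers of several other cell types were also higher in the EGFP-negative library, well beyond the 7.63% over all genes. For mesenchyme, 15 of 16 measured markers were higher by 2-fold or more in EGFP-negative cells, with a summed signal of 572.7 in EGFP-positive cells, against 7202 in EGFP-negative cells. The fibrillar collagen gene Col1a1 was at 1.0 and Twist1 at 11.5 in EGFP-positive cells, against 171.8 and 266.5 in EGFP-negative cells. All 9 measured erythroid markers passed the limit in that direction, with summed signals of 3015 in EGFP-positive cells, against 21460 in EGFP-negative cells. So did all 10 leukocyte markers, with sums of 80.1 in EGFP-positive cells, against 1295 in EGFP-negative cells, and 9 of 10 endothelial markers, with 120.9 in EGFP-positive cells, against 720.2 in EGFP-negative cells. Of 9 neural tube markers 7 did, with sums of 76.7 in EGFP-positive cells, against 2593 in EGFP-negative cells. Markers of neural crest and glia were split, with 2 of 7 higher in EGFP-positive cells, 4 higher in EGFP-negative cells, and sums of 2416 in EGFP-positive cells, against 1623 in EGFP-negative cells. Erbb3 and Sox10 gave most of that sum, at 1405.0 and 889.3 in EGFP-positive cells, against 511.1 and 403.7 in EGFP-negative cells. The other 5 had a ratio below 0. Otic epithelial markers were higher by 2-fold or more in EGFP-positive cells for 10 of 12, where the share over all genes was 2.90%. Their summed signals were 10144 in EGFP-positive cells, against 4897 in EGFP-negative cells. The exceptions were Tbx1, at 565.0 in EGFP-positive cells, against 383.5 in EGFP-negative cells, and Oc90, which went the other way. Oc90 read 939.8 in EGFP-positive cells, against 1405.7 in EGFP-negative cells, a log2 ratio of -0.58. Of 8 neuronal markers, 2 were higher by 2-fold or more in EGFP-positive cells, 4 had a ratio below 0, and the sums were 3235 in EGFP-positive cells, against 2482 in EGFP-negative cells. Neurod1 alone gave 1432.4 of that sum in EGFP-positive cells, against 723.9 in EGFP-negative cells. No defining marker was at exactly 0. The part of these cells in the ratios of Plagl1, Slc38a4, Peg3 and Asb4 was not tested.

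The annotated start regions of these genes differ in sequence composition. The sequences below run from 250 bases before to 50 after the RefSeq start (GRCm38.p6, 5′ to 3′ on the strand of the gene), with CG dinucleotides, the sites of DNA methylation, in capitals. Where a gene has several starts, the one with the most CG is shown. They are the start regions of the 4 genes that were higher in EGFP-negative cells, and for contrast those of Ppp1r9a, a gene of the same cluster as Asb4, and Mest, which was level between the populations. Peg3 is at chr7:6730370-6730669 (minus strand), Plagl1 at chr10:13090582-13090881 (plus strand), Slc38a4 at chr15:97055907-97056206 (minus strand), Asb4 at chr6:5390160-5390459 (plus strand), Ppp1r9a at chr6:4903061-4903360 (plus strand) and Mest at chr6:30737800-30738099 (plus strand).
Peg3: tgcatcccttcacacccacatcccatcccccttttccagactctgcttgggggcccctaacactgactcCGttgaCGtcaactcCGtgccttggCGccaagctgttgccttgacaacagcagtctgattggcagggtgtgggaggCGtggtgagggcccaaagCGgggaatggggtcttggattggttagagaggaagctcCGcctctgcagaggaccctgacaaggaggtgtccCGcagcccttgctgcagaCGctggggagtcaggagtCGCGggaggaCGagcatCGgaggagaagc
Plagl1: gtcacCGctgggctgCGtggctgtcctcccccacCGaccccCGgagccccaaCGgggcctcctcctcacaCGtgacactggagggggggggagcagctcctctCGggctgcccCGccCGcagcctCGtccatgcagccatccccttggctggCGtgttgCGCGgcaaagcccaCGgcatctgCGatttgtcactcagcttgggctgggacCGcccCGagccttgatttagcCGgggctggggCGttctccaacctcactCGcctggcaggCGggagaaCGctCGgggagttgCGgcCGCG
Slc38a4: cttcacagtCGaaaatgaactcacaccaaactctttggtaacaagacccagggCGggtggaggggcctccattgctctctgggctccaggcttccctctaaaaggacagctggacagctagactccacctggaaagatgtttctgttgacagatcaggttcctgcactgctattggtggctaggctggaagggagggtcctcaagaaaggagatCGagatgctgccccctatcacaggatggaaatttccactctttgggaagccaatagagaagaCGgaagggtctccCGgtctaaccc
Asb4: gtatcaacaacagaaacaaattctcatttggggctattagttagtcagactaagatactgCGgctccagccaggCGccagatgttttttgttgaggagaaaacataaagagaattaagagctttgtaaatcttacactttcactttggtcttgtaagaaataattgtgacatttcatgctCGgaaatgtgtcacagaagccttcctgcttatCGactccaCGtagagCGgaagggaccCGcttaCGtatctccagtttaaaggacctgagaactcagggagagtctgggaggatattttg
Ppp1r9a: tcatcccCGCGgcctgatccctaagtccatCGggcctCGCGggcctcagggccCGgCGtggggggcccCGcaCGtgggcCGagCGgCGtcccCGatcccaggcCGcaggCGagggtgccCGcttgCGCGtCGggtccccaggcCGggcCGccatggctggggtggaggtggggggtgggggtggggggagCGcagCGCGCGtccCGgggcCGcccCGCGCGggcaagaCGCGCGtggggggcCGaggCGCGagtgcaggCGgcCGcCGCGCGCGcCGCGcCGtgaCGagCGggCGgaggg
Mest: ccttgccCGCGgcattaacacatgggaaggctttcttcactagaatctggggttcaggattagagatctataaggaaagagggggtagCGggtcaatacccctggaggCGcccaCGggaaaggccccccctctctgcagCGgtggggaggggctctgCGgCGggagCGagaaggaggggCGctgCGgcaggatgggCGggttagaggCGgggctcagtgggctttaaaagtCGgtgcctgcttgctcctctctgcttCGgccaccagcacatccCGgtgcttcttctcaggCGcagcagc

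Among the genes called different, the Plagl1 start region held 26 CG dinucleotides and that of Peg3 13, whereas Slc38a4 held 5 and Asb4 8. The Ppp1r9a region held 48, with 82% of its bases G or C, and the Mest region 17. Start regions were listed for 32 of the 37 genes, with a median of 19 CG, beside 22 over 10770 measured genes with a listed region. The 2 sets are not quite alike, because the 32 include Zim1, Calcr, Slc22a18 and Ascl2, which were not measured. The letters TGCCGC, the core recognised by ZFP57 (a zinc finger protein that keeps imprints), were searched on both strands. They were present in 12 of the 32 regions, or 37.5%, beside 20.4% of the measured genes and 12.2% of all 27025 listed genes. With the comparison held to regions of 10 to 30 CG, the count was 10 of 22 imprinted genes, beside 19.3% of 6483 measured genes. The unmeasured genes Zim1 and Calcr are among the 12 and among the 10, so the shares over measured imprinted genes alone are not given here. Of the sequences shown, Mest held 2 matches and Plagl1 1, while Peg3, Slc38a4, Asb4 and Ppp1r9a held none. A match is a description of the letters and not a bound site.

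Peg3 and Usp29 start beside each other on opposite strands, and their listed start regions share 263 bases. Usp29, a paternally expressed gene for a deubiquitinating enzyme, read 10.8 in EGFP-positive cells, against 14.3 in EGFP-negative cells, next to the floor in both. Zim1, a maternally expressed zinc finger gene of the same cluster, lay at the floor in both libraries, at 0.9 in EGFP-positive cells, against 9.2 in EGFP-negative cells. Usp29 stayed within 2-fold, with a log2 ratio of -0.40, while Zim1 was not measured at this floor and passed the limit in EGFP-negative cells under a lower floor, the 20th percentile.

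In the cluster around Peg10 and Sgce, genes differed in direction. Ppp1r9a encodes neurabin, an actin-binding scaffold of neurons, and read 315.5 in EGFP-positive cells, against 174.6 in EGFP-negative cells. A second probe set read 232.2 in EGFP-positive cells, against 135.0 in EGFP-negative cells, and another 80.1 in EGFP-positive cells, against 37.7 in EGFP-negative cells. All 3 were higher in EGFP-positive cells, at 1.72-fold to 2.12-fold, and the brightest, at 1.81-fold, was under the limit. Asb4, in the same cluster, had the bound of at least 8.48-fold in favour of EGFP-negative cells given above. Sgce, a paternally expressed gene for epsilon-sarcoglycan, was level at 207.2 in EGFP-positive cells, against 213.3 in EGFP-negative cells. Peg10, a paternally expressed gene derived from a retrotransposon, was at the floor, with 9.0 in EGFP-positive cells, against 8.0 in EGFP-negative cells. So was Calcr, the calcitonin receptor gene, with 5.3 in EGFP-positive cells, against 2.5 in EGFP-negative cells.

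**Figure D2:**
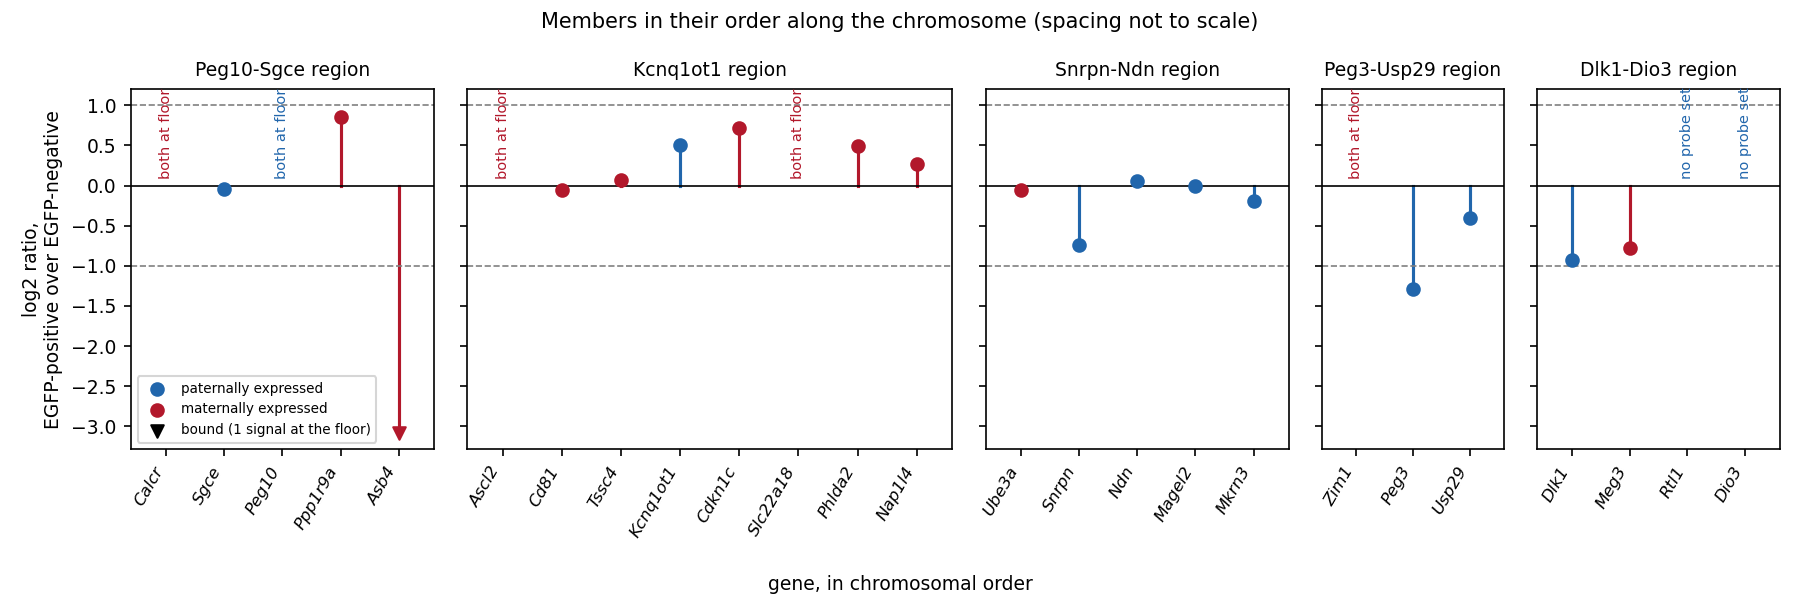
Log2 ratio of EGFP-positive over EGFP-negative signal for the genes of 5 imprinted clusters, in their order along the chromosome in GRCm38.p6 with spacing not to scale. Blue marks paternally and red maternally expressed genes, a triangle marks a bound, and dashed lines mark 2-fold. Ppp1r9a and Asb4 point in opposite directions, and the genes around Cdkn1c sit at or above 0 apart from Cd81 at -0.06. The points of Dlk1 and Meg3 lie below 0, but that of Meg3 is its brightest probe set only, and its probe sets disagree in direction.

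In the cluster governed by the non-coding RNA Kcnq1ot1, no measured gene reached 2-fold, and 5 of 6 had a ratio above 0. Cdkn1c encodes p57, an inhibitor of cyclin-dependent kinases that restrains growth, and read 1548.2 in EGFP-positive cells, against 937.3 in EGFP-negative cells, a log2 ratio of 0.72. Kcnq1ot1, whose transcription from the paternal copy silences its neighbours in cis, read 114.7 in EGFP-positive cells, against 80.9 in EGFP-negative cells. Its second bright probe set read 103.3 in EGFP-positive cells, against 71.8 in EGFP-negative cells, whereas a dim one read 14.0 in EGFP-positive cells, against 20.2 in EGFP-negative cells, so its direction was not shared by all 3. Phlda2, a restrainer of placental growth, read 17.6 in EGFP-positive cells, against 12.5 in EGFP-negative cells, next to the floor. Nap1l4, a histone chaperone gene, read 1084.5 in EGFP-positive cells, against 899.3 in EGFP-negative cells. Tssc4 was level at 161.1 in EGFP-positive cells, against 153.4 in EGFP-negative cells, and so was the tetraspanin gene Cd81, at 860.2 in EGFP-positive cells, against 895.7 in EGFP-negative cells. Slc22a18, a transporter gene, and Ascl2, a transcription factor gene of the trophoblast, were at the floor, with no signal above 8.0.

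The cluster of Dlk1 and Meg3 lay below 0 for the probe sets that stand for both genes. Dlk1, a paternally expressed transmembrane protein related to Notch ligands, read 95.4 in EGFP-positive cells, against 181.5 in EGFP-negative cells, 1.90-fold higher in EGFP-negative cells and just under the limit. The ratio of Dlk1 rests on 1 probe set, of the class with the suffix s, because its other one was at the floor in both libraries. Meg3, a maternally expressed non-coding RNA, read 264.2 in EGFP-positive cells, against 453.7 in EGFP-negative cells on its brightest probe set, a log2 ratio of -0.78. Its 11 probe sets disagreed, with log2 ratios from -0.95 to 0.89, of which 6 were above and 5 below 0, and their median was 0.011. No direction can be given for Meg3 as a gene. Rtl1 and Dio3, paternally expressed genes of this cluster, were not analysed here.

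In the cluster of the Prader-Willi and Angelman syndrome genes, signals were close. Ndn, which encodes the MAGE family protein necdin, read 1326.1 in EGFP-positive cells, against 1272.4 in EGFP-negative cells, and its 5 probe sets above the floor lay between -0.04 and 0.23 on the log2 scale. Magel2, a further MAGE family gene, read 36.8 in EGFP-positive cells, against 37.0 in EGFP-negative cells. Mkrn3, a ring finger gene that restrains the onset of puberty in humans, read 40.4 in EGFP-positive cells, against 46.0 in EGFP-negative cells. Ube3a, a ubiquitin ligase gene that is imprinted in neurons, read 1011.8 in EGFP-positive cells, against 1049.1 in EGFP-negative cells. All 6 of its probe sets had a ratio below 0, down to -0.97 for a dim one. Snrpn, a gene for a spliceosomal protein, is represented by 1 dim probe set at 13.2 in EGFP-positive cells, against 22.0 in EGFP-negative cells, because the other 6 are named for Snrpn together with Snurf and were not used.

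**Figure D3:**
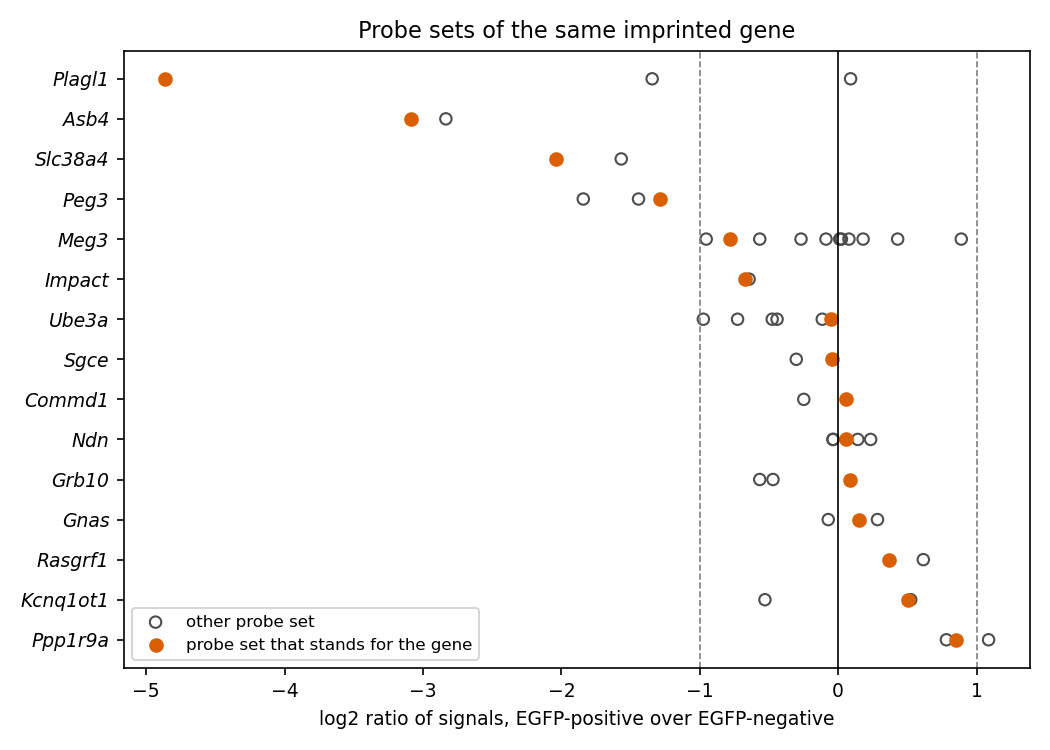
Log2 ratio of EGFP-positive over EGFP-negative signal for every probe set above the floor in at least 1 library, for the 15 imprinted genes with several such probe sets. Filled points stand for the gene in all other results, and dashed lines mark 2-fold. The probe sets of Peg3, Slc38a4 and Asb4 lie together beyond the left line, those of Plagl1 run from -4.86 to 0.090, and those of Meg3 lie on both sides of 0.

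Probe sets of the same gene differed with an SD of 0.388 over the 12 imprinted genes that have several above both floors, beside 0.315 over the array. Of the 15 genes in the plot of probe sets, 7 had ratios on both sides of 0. Of 69 measured probe sets, 1, for Ppp1r9a, passed the limit in EGFP-positive cells and 9 passed it in EGFP-negative cells. Over all 24820 measured probe sets that name 1 gene, the shares were 2.54% in EGFP-positive cells and 6.63% in EGFP-negative cells. All 9 belonged to Plagl1, Asb4, Slc38a4 and Peg3.

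Several genes that stand alone or in small clusters were bright and level in both populations. Mest, a paternally expressed gene for an alpha/beta hydrolase that marks mesoderm, read 4022.9 in EGFP-positive cells, against 3791.9 in EGFP-negative cells, a log2 ratio of 0.09. Copg2, its neighbour and a gene for a vesicle coat subunit, read 297.3 in EGFP-positive cells, against 324.6 in EGFP-negative cells. Grb10, an adaptor that dampens insulin receptor signalling, read 3258.5 in EGFP-positive cells, against 3066.8 in EGFP-negative cells on its brightest probe set, but its other probe sets had log2 ratios of -0.47 and -0.57. Gnas, which gives rise to several transcripts of different parental origin including the G protein alpha subunit, read 3765.4 in EGFP-positive cells, against 3384.5 in EGFP-negative cells. Nnat, a paternally expressed proteolipid gene known from the nervous system, read 2535.7 in EGFP-positive cells, against 2272.9 in EGFP-negative cells. Each of these 5 genes differed by less than 1.25-fold between the libraries on the probe set that stands for it.

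The remaining genes also stayed under the limit. Impact, which regulates translation through the kinase Gcn2, read 135.2 in EGFP-positive cells, against 215.5 in EGFP-negative cells, and its second probe set above the floor went the same way (log2 ratios of -0.67 and -0.64). Gatm, an enzyme gene of creatine synthesis, read 18.8 in EGFP-positive cells, against 33.3 in EGFP-negative cells, a log2 ratio of -0.82. Nap1l5 read 1.8 in EGFP-positive cells, against 19.9 in EGFP-negative cells, a bound of at least 1.91-fold in favour of EGFP-negative cells. Nap1l5 became a call with a floor at the 20th percentile (log2 ratio of -2.51). It also did with a pseudocount of 16 in place of the floor (-1.01) and after centring on spiked controls (-1.18). Its place under the limit depends on these choices. Zdbf2, a zinc finger gene, read 206.3 in EGFP-positive cells, against 178.8 in EGFP-negative cells. The translation factor gene Mcts2 read 337.7 in EGFP-positive cells, against 276.3 in EGFP-negative cells, and Commd1, a regulator of copper balance, 577.9 in EGFP-positive cells, against 555.2 in EGFP-negative cells. Rasgrf1, a Ras activator gene, was dim at 20 in EGFP-positive cells, against 15.5 in EGFP-negative cells.

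Split by the expressed parental copy, both groups held genes with ratios on either side of 0. Of 23 paternally expressed genes listed, 19 were found and 18 measured. Of these 18, 3 (16.7%) were higher by 2-fold or more in EGFP-negative cells, beside 7.63% of all measured genes, and the median log2 ratio was -0.11, with quartiles at -0.88 and 0.14. Of 19 maternally expressed genes listed, 17 were found and 13 measured. Asb4 alone among these 13 (7.69%, close to the share over all genes) was higher by 2-fold or more in EGFP-negative cells, with a median of 0.06 and quartiles at -0.13 and 0.27. Of the 13, 8 are imprinted mainly in placenta or brain. None of the 8 passed the limit, and a list of this size would hold few calls at 7.63%. Of the other 5, with a median of 0.09, 1 (20%, Asb4) passed it in EGFP-negative cells. The difference between paternally and maternally expressed genes was not tested, since there is no spread between samples. The median of the paternally expressed genes was -0.04 where genes at the floor in 1 library were left out. After centring on spiked controls it was -0.36, and that of the maternally expressed genes was -0.19. This centring moved the median of all genes by -0.25. With a gene's probe sets summarised by their median, the maternally expressed genes had a median of -0.06.

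**Figure D4:**
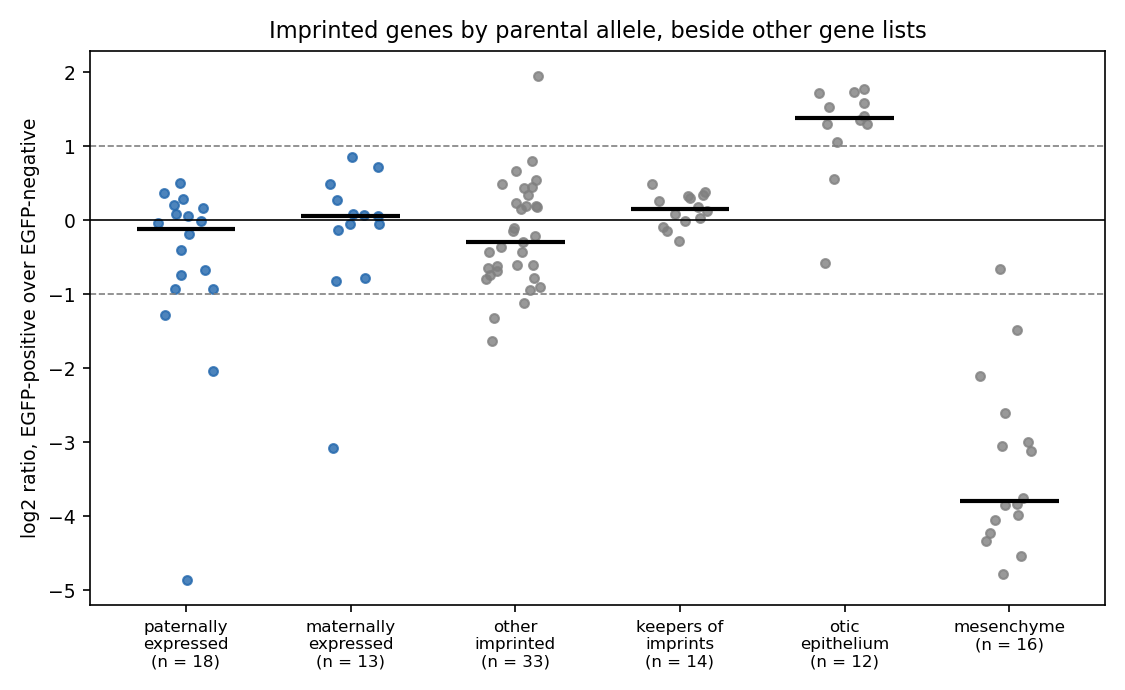
Log2 ratio of EGFP-positive over EGFP-negative signal for each measured gene (points, spread sideways for visibility) with the median of each list (bars), and dashed lines at 2-fold. Paternally and maternally expressed genes sit around 0 (medians -0.11 and 0.06), otic epithelial markers around 1.39 and mesenchymal markers around -3.79.

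Imprinted genes outside the list of 44 were taken as a second list. Of 40 such genes, 37 were found and 33 measured, with a median log2 ratio of -0.30. Past the limit in EGFP-positive cells was 1, Smoc1, a gene for a calcium-binding matricellular protein, at 168.6 in EGFP-positive cells, against 43.7 in EGFP-negative cells. That is 3.03%, beside 2.90% of all measured genes. In EGFP-negative cells 3 were at least 2-fold higher, or 9.09%, beside 7.63%, so both shares were near those over all genes. Igf2, the paternally expressed growth factor gene, read 509.9 in EGFP-positive cells, against 1581.7 in EGFP-negative cells, 3.10-fold higher in EGFP-negative cells, and the log2 ratio of its second probe set was -2.34. Pon2, a paraoxonase gene in the same chromosomal region as Asb4, read 48.8 in EGFP-positive cells, against 122.0 in EGFP-negative cells, and Ntm, a neuronal adhesion gene, 25.3 in EGFP-positive cells, against 55.0 in EGFP-negative cells. Among bright genes within the limit were Casd1, at 732.0 in EGFP-positive cells, against 791.1 in EGFP-negative cells, and Gab1 at 433.0 in EGFP-positive cells, against 382.2 in EGFP-negative cells. Dlx5 read 367.6 in EGFP-positive cells, against 322.2 in EGFP-negative cells, and Dhcr7 203.6 in EGFP-positive cells, against 226.1 in EGFP-negative cells. A floor at the 60th percentile gave a median of 0.020, and therefore no direction is given for this list.

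Genes that set or keep imprints lay within 2-fold. None of 14 measured ones, of 17 listed, reached the limit, where the shares over all genes were 2.90% in EGFP-positive cells and 7.63% in EGFP-negative cells, so a list of this size would hold few calls at those shares, and their median log2 ratio was 0.15. Dnmt1, the maintenance methyltransferase, read 774.1 in EGFP-positive cells, against 759.8 in EGFP-negative cells, and its partner Uhrf1 875.5 in EGFP-positive cells, against 973.7 in EGFP-negative cells. Trim28, the corepressor recruited by ZFP57, read 3374.6 in EGFP-positive cells, against 2994.4 in EGFP-negative cells. Smchd1, a chromatin protein of X inactivation and of some imprinted clusters, read 908.4 in EGFP-positive cells, against 859.3 in EGFP-negative cells. Zfp57 itself was next to the floor, at 15.4 in EGFP-positive cells, against 16.4 in EGFP-negative cells, whereas Zfp445, which shares its function, read 993.0 in EGFP-positive cells, against 791.0 in EGFP-negative cells. The largest ratio was that of the de novo methyltransferase gene Dnmt3b, at 744.6 in EGFP-positive cells, against 531.4 in EGFP-negative cells, a log2 ratio of 0.49.

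Both libraries had been scaled to a common level. Signals above the floor were found for 12411 genes in the EGFP-positive library, against 12634 in the EGFP-negative library. Over all genes 388 passed the limit in EGFP-positive cells and 1019 in EGFP-negative cells. After quantile normalization 503 passed it in EGFP-positive cells and 822 in EGFP-negative cells. Centring on spiked controls gave 224 in EGFP-positive cells and 1447 in EGFP-negative cells, and moved the median of all genes by -0.25. Plagl1, Asb4, Slc38a4 and Peg3 were called under both of these scalings.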

How the data were processed

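RNA from EGFP-positive and EGFP-negative otocyst cells was labelled with biotin and hybridised to 1 Affymetrix array each. The deposited values are intensities, 1 signal per probe set on a linear scale for 45101 probe sets. They came from MAS5 version 5.0 per the submitters' processing notes, with no other setting given there. In both columns the mean after trimming 2% of values at each end was 100.0.

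Probe sets were named from the platform annotation, updated through the GRCm38.p6 RefSeq gene table: 34958 name 1 gene, 932 several and 9211 are unnamed here. Among several probe sets of a gene, the brightest on average stood for it. The 7 listed genes not found are H19, whose probe set also names a microRNA gene, and Rtl1, Dio3, Zrsr1, Air, Slc22a3 and Dcn2, which no probe set names under that symbol. The text names every measured gene of the list and, of the further imprinted genes and the genes that keep imprints, those past 2-fold and up to 4 bright others each. Dnmt1, Zfp57, Dnmt3b, Col1a1, Twist1, Neurod1, Erbb3, Sox10, Oc90 and Tbx1 were picked after their values were seen. The genes and lists were chosen with earlier results of these data known. The labels give no number of embryos, and the number of arrays limits the precision. Calculations used Python 3.11.15 and pandas 2.3.3, with calls tested on simulated data for 12850 genes, where all 100 genes changed by 1.5 and all 100 changed by 2.5 on the log2 scale, chosen with a mean signal above 60, were called in the right direction, and 2 of 12650 unchanged genes were called, with noise of SD 0.2 per array. The simulation held no variation between embryos, sorts or hybridisations, so it checks the calculation and not the error of the calls made here. Asb4, at a mean signal of 48, lay below the signals at which changes were simulated.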

Additional observations from a re-analysis of the deposited data

How the results depend on the processing

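Counts and medians were recomputed under 11 other settings, of which 1 (a floor raised to the highest bacterial control) was chosen after seeing the data. Under none of them did a gene of the list pass the limit in EGFP-positive cells. The share over all genes in that direction ran from 0.277% to 4.31%, so a list of this size would hold few calls. In EGFP-negative cells the count ranged from 3 to 8, and the share over all genes moved too. After centring on spiked controls, which adds Dlk1, Gatm, Meg3 and Nap1l5, the count was 8 of 32, beside 10.8% of all genes. A floor at the 20th percentile, which adds Nap1l5 and Zim1, gave 6 of 37, beside 11.8%. A pseudocount of 16, which adds Nap1l5, gave 5 of 32, beside 4.84%. A floor at the 60th percentile gave 4 of 26, beside 4.65%. Counts of 3 were of 30 without genes at the floor (5.41% of all genes), of 27 without the suffixes x, s and a (7.52%), and of 32 at 4-fold (2.53%). Slc38a4 was past 2-fold under all settings, as was Asb4 except where genes at the floor were left out, and Peg3 except at a 4-fold limit. Plagl1 lost its call, with a log2 ratio of 0.090 to the floor, where probe sets with the suffixes x, s and a were left out and the one that remained was not measured in EGFP-negative cells, and stood at -1.34 as the median of its probe sets. The ratio of Asb4 ran from -1.41 (floor at the 60th percentile) to -3.50 (20th). The median of the further imprinted genes moved to 0.020 under a floor at the 60th percentile. The cause of these changes was not tested beyond the settings' own construction. Over all genes, 388 were higher in EGFP-positive cells and 1019 in EGFP-negative cells, of 13363 measured. In that order, a floor at the 60th percentile gave 237 and 478 of 10270, and one at the 20th gave 711 and 1954 of 16504. With a pseudocount of 16 the counts were 238 and 647 of 13363. Without genes at the floor they were 325 and 632 of 11682, and at 4-fold 37 and 338 of 13363. Of 275 single-gene values, 262 moved by less than the probe-set SD of 0.315. For part of them this was fixed by construction. Leaving out genes at the floor in 1 library does not change the ratios that remain. Centring on spiked controls moved every ratio by the same 0.25, which is less than that SD. No paired analysis was possible because each population has 1 array. Dim signals near the floor limit the ratios of Usp29, Phlda2, Rasgrf1, Snrpn and Nap1l5.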

Other observations

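Airn, the antisense non-coding RNA that silences Igf2r and its neighbours on the paternal chromosome, is the present name of the listed gene Air and lay outside the rule, which goes by symbol. Of its probe sets, 3 lay above the floor in both libraries. They read 61.2, 32.8 and 26.5 in EGFP-positive cells, against 57.6, 28.8 and 20.4 in EGFP-negative cells, in the same order of probe sets, with log2 ratios of 0.09, 0.19 and 0.38. Igf2r itself, a receptor that clears IGF2, read 160.9 in EGFP-positive cells, against 198.2 in EGFP-negative cells, a log2 ratio of -0.30. Neither reached 2-fold.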
